A study of Mus musculus with 18 samples.

Results

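The 9 genes described here encode enzymes that carry, buffer or break down high-energy phosphate in muscle, or that make creatine. They were chosen by name: Ckm, Ckmt2 and Ckb encode creatine kinases, Ak1, Ak3 and Ak4 encode adenylate kinases, Gatm and Gamt encode the enzymes of creatine synthesis, and Ampd3 encodes an AMP deaminase. All 9 are among the 19197 genes measured, and all 9 passed the filter on low values in every comparison. The samples were 18 libraries of RNA from the apex of mouse hearts, 6 in each of 3 groups, at 1 day after myocardial infarction (MI). Mice of the MI_DCA group were C57BL/6 with MI and received DCA daily (10 mg/kg). Those of the MI_vehicle group were C57BL/6 with MI and received vehicle, and those of the sham_vehicle group were C57BL/6 with a sham operation and received vehicle. C57BL/6 is an inbred laboratory strain, and no group carries a transgene or other allele in the labels. DCA is not spelled out there and is taken here as deoxycholic acid, a bile acid, because the series title pairs it with the bile acid receptor TGR5.

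Creatine kinases move phosphate reversibly between ATP and creatine. In heart muscle the sarcomeric mitochondrial form, Ckmt2, makes phosphocreatine where ATP is produced, and the cytosolic muscle form, Ckm, remakes ATP where the myofilaments use it; Ckb is the cytosolic form known from brain, smooth muscle and other non-muscle cells. Adenylate kinases convert a pair of ADP molecules to ATP and AMP or the reverse, with Ak1 in the cytosol and Ak3, which uses GTP, and Ak4 in the mitochondrial matrix. AMP deaminase removes AMP by converting it to IMP.

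Expression was measured as FPKM, in which reads are scaled for the depth of a library and for the length of the transcript. The libraries were made by capture, for which FPKM make no correction, so levels set between genes are approximate. Differences refer to log2(FPKM + 1), and those of genes with low values are understated by the added 1. Called here means a Benjamini-Hochberg adjusted p below 0.05 in limma, over all genes tested. Library depth, estimated from the value of 1 read, was 10200000 to 13000000 reads in MI_DCA, 11200000 to 13800000 in MI_vehicle and 9500000 to 10700000 in sham_vehicle. Within groups, the correlation of log2 values between libraries was 0.965 to 0.996 in MI_DCA, 0.968 to 0.995 in MI_vehicle and 0.991 to 0.996 in sham_vehicle. The labels name the hearts 1 to 6 in each group but do not say that each library is a separate mouse, so the p-values measure the spread between these libraries, which may in part be technical. The tissue label fits its markers, since all 10 cardiomyocyte structural genes examined reached 1 FPKM in each group, and the kidney and lung markers Umod and Sftpc were at 0 in all 18 libraries. For the 9 genes, MI_vehicle heart 4 and MI_DCA hearts 1, 3 and 5 lay nearer to sham_vehicle than the rest of their groups. The share of all genes inside the sham_vehicle range was not counted for single hearts. Of the 9 genes, 5 lay within the sham_vehicle range in MI_vehicle heart 4, and 6, 5 and 4 did so in MI_DCA hearts 1, 3 and 5, against 0 to 2 in every other MI heart. In pieces of heart, fewer cells of a type and less RNA per cell cannot be told apart.

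With FPKM as deposited, Ckm was called lower and Ckb higher in MI_vehicle against sham_vehicle, while Ckb was not called in MI_DCA against sham_vehicle. The promoter sequences of these cytosolic creatine kinases are therefore shown. Each is the 250 bases before the gene's start in RefSeq, build GRCm38.p6, written 5′ to 3′ on the gene's strand, and capitals mark the motif matches described after them. Ckm lies at chr7:19411094-19421583 on the plus strand and its window is chr7:19410844-19411093. Ckb lies at chr12:111669355-111672338 on the minus strand and its window is chr12:111672339-111672588.
Ckm: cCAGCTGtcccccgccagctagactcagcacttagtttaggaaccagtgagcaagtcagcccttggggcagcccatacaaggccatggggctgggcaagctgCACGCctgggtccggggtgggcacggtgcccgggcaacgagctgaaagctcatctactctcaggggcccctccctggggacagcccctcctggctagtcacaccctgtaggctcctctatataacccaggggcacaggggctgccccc
Ckb: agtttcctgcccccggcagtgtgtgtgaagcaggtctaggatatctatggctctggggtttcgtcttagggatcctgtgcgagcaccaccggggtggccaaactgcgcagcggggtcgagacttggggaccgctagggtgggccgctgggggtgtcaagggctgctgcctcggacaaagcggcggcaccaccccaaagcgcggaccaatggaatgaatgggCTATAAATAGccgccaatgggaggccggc

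Both strands of the windows were searched for the TATA box TATAAA, the E-box CANNTG, the hypoxia response core ACGTG or GCGTG, the GC box GGGCGG and the MEF2 motif. The Ckm window held 1 E-box at position -249 from the start and 1 hypoxia response core at -148. The Ckb window held 1 MEF2 match at -29, which overlaps its TATA box at -28, and no E-box or hypoxia response core. Of 32851 mouse promoter windows of the same length, 66.2% held an E-box, 38.6% a hypoxia response core, 12.4% a TATA box, 32.7% a GC box and 2.92% a MEF2 match. These matches describe letters and not sites of binding.

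In sham_vehicle hearts the mitochondrial and muscle creatine kinases had the highest FPKM of the 9. Ckmt2 averaged 1611 ± 136 FPKM and Ckm 1538 ± 233 FPKM (SD, n = 6), ranks 31 and 32 of all genes by mean FPKM. Their ranges overlapped, with Ckmt2 above Ckm in 4 of 6 hearts. Ak1 followed at 286 ± 13 FPKM, then Ak3 at 72.5 ± 4.32, Ckb at 28.9 ± 2.67 and Ampd3 at 21.8 ± 2.44 FPKM. The ranges of these 4 genes did not overlap in sham_vehicle. Ak4 at 8.60 ± 1.04 FPKM and Gamt at 6.54 ± 1.21 FPKM did overlap, and Gatm was lowest at 3.22 ± 0.580 FPKM, below every Ak4 and Gamt value of that group.

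**Figure D1:**
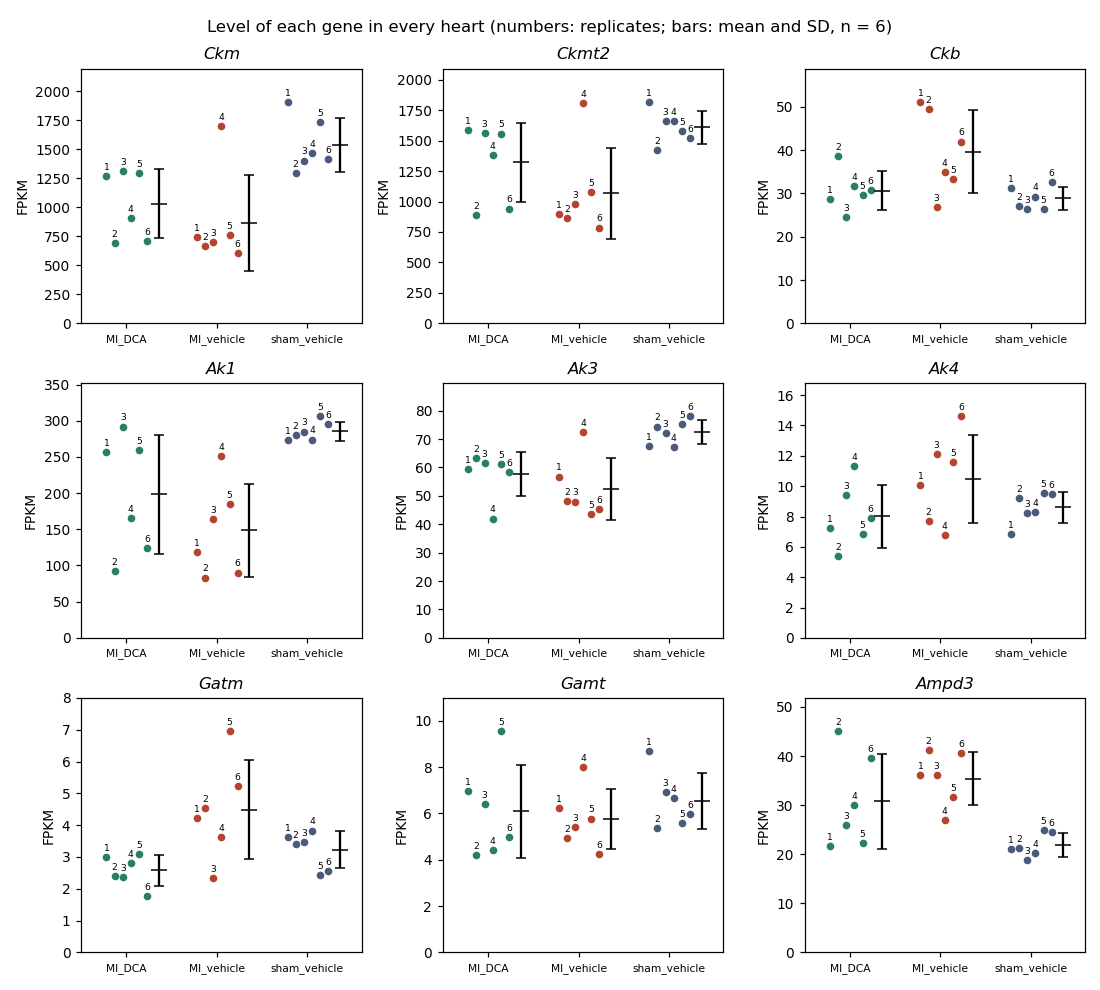
Level of each of the 9 genes in FPKM (linear axis from 0) in each heart, with MI_DCA left, MI_vehicle in the middle and sham_vehicle right. Points are hearts with their numbers, and bars are the mean and SD (n = 6). The sham_vehicle hearts lie close together for Ak1 (273 to 306 FPKM), while the MI_DCA hearts spread from 92.5 to 292 FPKM.

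After MI with vehicle, 4 of the 9 genes fell and 2 rose relative to sham_vehicle. The genes that fell were Ckm, Ckmt2 and Ak1, the main forms of heart muscle, and Ak3, and those that rose were Ckb and Ampd3. Ak4, Gatm and Gamt did not pass the test. Of all 11969 genes tested in this comparison, 38.3% were called higher and 20.1% lower, 58.4% in all, so a call by itself does not set the 9 genes apart. The median log2 difference was -0.16 over the 9 genes and 0.12 over all genes tested.

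Ckm, the muscle creatine kinase, had 741, 668, 701, 1702, 764 and 605 FPKM in MI_vehicle hearts 1 to 6, against 1910, 1299, 1403, 1466, 1735 and 1416 FPKM in sham_vehicle hearts 1 to 6. Heart 4 was inside the sham_vehicle range, and the other 5 MI_vehicle hearts were below every sham_vehicle heart. Ckm averaged 864 ± 414 FPKM in MI_vehicle and 1538 ± 233 FPKM in sham_vehicle (SD, n = 6 each), a log2 difference of -0.92 (SE 0.22, limma adjusted p = 0.00306), and of -1.13 without heart 4. It ranked 72 of all genes in MI_vehicle and 32 in sham_vehicle.

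Ckmt2, the sarcomeric mitochondrial creatine kinase (chr13:91853386-91876923), had 897, 861, 982, 1806, 1076 and 786 FPKM in MI_vehicle hearts, against 1819, 1425, 1664, 1658, 1581 and 1520 FPKM in sham_vehicle hearts. Again only MI_vehicle heart 4 lay within the sham_vehicle range. The log2 difference was -0.65 (SE 0.17, limma adjusted p = 0.00653), or -0.81 without heart 4, with means of 1068 ± 375 FPKM in MI_vehicle and 1611 ± 136 FPKM in sham_vehicle. In MI_vehicle Ckmt2 exceeded Ckm in all 6 hearts.

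Ckb, the brain-type cytosolic form, had 51.2, 49.5, 26.9, 35.0, 33.4 and 42.0 FPKM in MI_vehicle hearts, against 31.2, 27.0, 26.4, 29.3, 26.5 and 32.7 FPKM in sham_vehicle hearts. All MI_vehicle hearts but heart 3 were above the sham_vehicle range. Ckb rose by 0.42 on the log2 scale (SE 0.14, limma adjusted p = 0.021), with means of 39.7 ± 9.60 FPKM in MI_vehicle and 28.9 ± 2.67 FPKM in sham_vehicle. The call was lost under median-ratio scaling, where the difference was 0.28 and the adjusted p 0.105, and under quantile normalization, where they were 0.29 and 0.0795. The median of all genes was 0.12 as deposited, -0.00 under median-ratio scaling and -0.03 under quantile normalization.

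The highest Ckb values were in MI_vehicle hearts 1, 2 and 6. Within that group they also had the highest summed levels of the 6 smooth muscle and pericyte markers, at 3644, 4168 and 3601 FPKM. The markers were Myh11, Acta2, Tagln, Cnn1, Rgs5 and Des, and the sum can also hold RNA of other cells that express them. That sum was 1536 to 4168 FPKM over the MI_vehicle hearts and 1384 to 1530 FPKM over the sham_vehicle hearts, and all 6 markers were detected, with 3 called higher and 1 lower. MI_DCA heart 6 had the highest sum of all 18 hearts, 4196 FPKM, and its Ckb level of 30.7 FPKM was inside the sham_vehicle range. MI_DCA heart 2, with a sum of 4032 FPKM, had Ckb at 38.6 FPKM and was the only MI_DCA heart above that range. The part of cells that express these markers in the Ckb level was not tested.

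**Figure D2:**
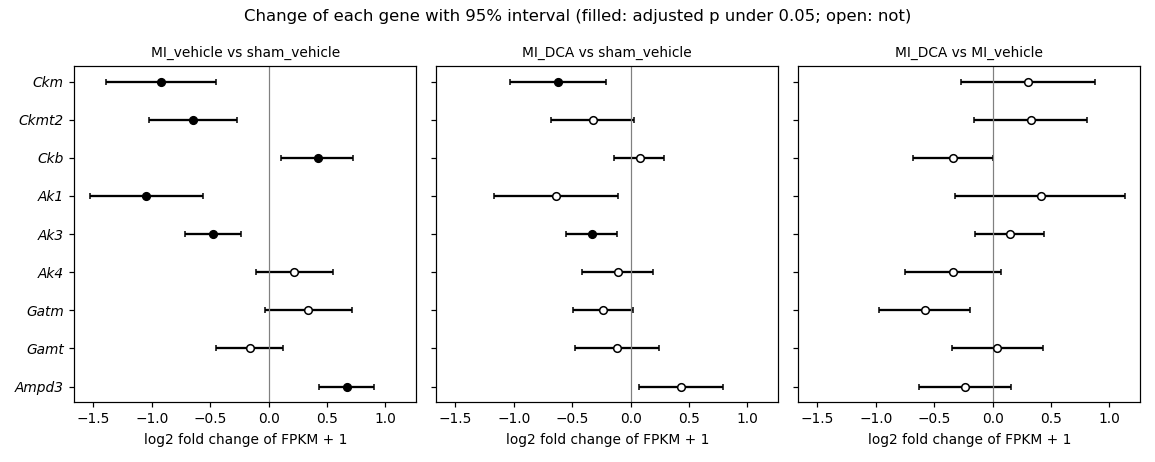
Difference of each of the 9 genes on the log2(FPKM + 1) scale in the 3 comparisons, with 95% confidence intervals; filled points were called by limma at an adjusted p below 0.05. Ckm, Ckmt2, Ak1 and Ak3 lie below 0 and Ckb and Ampd3 above it in MI_vehicle against sham_vehicle, and no point is filled in MI_DCA against MI_vehicle.

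The mix of creatine kinase transcripts differed as well. Summed over Ckm, Ckmt2 and Ckb, the level was 2382 ± 609 FPKM in MI_DCA, 1971 ± 783 FPKM in MI_vehicle and 3178 ± 346 FPKM in sham_vehicle (SD, n = 6 each). Ckb made up 3.19% ± 1.34 of the cytosolic creatine kinase level (Ckb plus Ckm) in MI_DCA, 4.96% ± 1.96 in MI_vehicle and 1.87% ± 0.278 in sham_vehicle. By FPKM, Ckm remained the main cytosolic form in all 18 hearts. Ckmt2 made up 55.6% ± 2.08 of the 3 creatine kinases in MI_DCA, 54.7% ± 2.49 in MI_vehicle and 50.8% ± 2.51 in sham_vehicle.

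Multiplying a library by a factor leaves ratios taken within a heart nearly unchanged. Quantile normalization can move them, and under it the log2 differences of Ckm and Ckmt2 were -0.82 and -0.40. The log2 ratio of Ckb to Ckm was -3.83, -3.73, -4.65, -5.56, -4.47 and -3.82 in MI_vehicle hearts, against -5.89, -5.54, -5.68, -5.60, -5.98 and -5.39 in sham_vehicle hearts. MI_vehicle heart 4 lay among the sham_vehicle hearts and the other 5 above all of them. The difference was 1.33 (exact permutation test, 2-sided, p = 0.00649; adjusted p = 0.026 over 12 ratio tests), and 1.58 without MI_vehicle heart 4. The log2 ratio of Ckmt2 to Ckm averaged 0.35 ± 0.15 in MI_vehicle and 0.08 ± 0.15 in sham_vehicle, a difference of 0.27 (exact p = 0.0152, adjusted p = 0.0364). This last call was lost in 9 of the 12 fits that left out 1 heart, namely MI_vehicle heart 1, 2, 3, 5 or 6 or sham_vehicle heart 1, 2, 5 or 6, with adjusted p = 0.0519 to 0.0675 in them by the exact test.

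**Figure D3:**
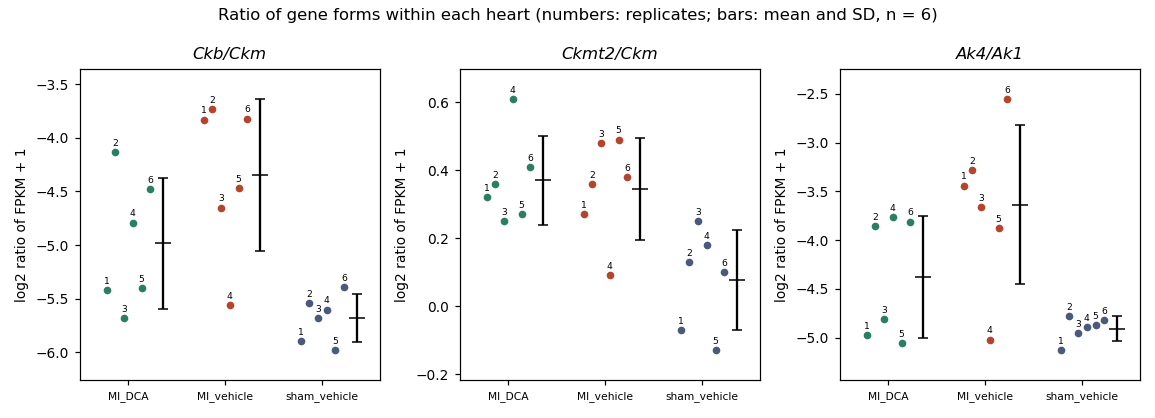
Log2 ratios of FPKM + 1 within each heart for Ckb to Ckm, Ckmt2 to Ckm and Ak4 to Ak1, with MI_DCA left, MI_vehicle in the middle and sham_vehicle right; points are numbered hearts and bars are the mean and SD (n = 6). The Ckb to Ckm ratio averages -4.34 in MI_vehicle and -5.68 in sham_vehicle, with 1 MI_vehicle heart among the sham_vehicle values.

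Of the adenylate kinases, Ak1 and Ak3 fell after MI with vehicle. Ak1, the cytosolic enzyme (chr2:32621758-32635058), had 119, 83.3, 164, 251, 185 and 90.2 FPKM in MI_vehicle hearts, against 273, 280, 285, 274, 306 and 296 FPKM in sham_vehicle hearts. The groups did not overlap, and even MI_vehicle heart 4 was below every sham_vehicle heart. The log2 difference of -1.05 (SE 0.22, limma adjusted p = 0.00173) was the most negative of the 9 genes, with means of 149 ± 63.9 FPKM in MI_vehicle and 286 ± 13 FPKM in sham_vehicle.

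Ak3, the matrix enzyme that uses GTP (chr19:28995053-29048080), had 56.8, 48.1, 48.0, 72.4, 43.6 and 45.3 FPKM in MI_vehicle hearts, against 67.6, 74.4, 72.1, 67.2, 75.4 and 78.0 FPKM in sham_vehicle hearts. MI_vehicle heart 4 was within the sham_vehicle range and the other 5 were below it. Ak3 fell by 0.48 on the log2 scale (SE 0.11, limma adjusted p = 0.00282). Of the 50-base windows of Ak3 transcripts, 20.1% also occur in other genes, mostly the neighbour Cdc37l1, so part of its reads could be assigned either way.

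Ak4, the matrix form that binds nucleotides with little kinase activity (chr4:101416478-101467771), had 10.1, 7.69, 12.1, 6.75, 11.6 and 14.6 FPKM in MI_vehicle hearts, against 6.83, 9.21, 8.25, 8.30, 9.53 and 9.50 FPKM in sham_vehicle hearts. MI_vehicle hearts 1, 3, 5 and 6 were above the sham_vehicle range and heart 4 was below it. The log2 difference of 0.22 (95% confidence interval -0.11 to 0.55, limma adjusted p = 0.226) did not pass the test. Without MI_vehicle heart 4 it was 0.33 and the adjusted p was 0.043, and without MI_vehicle heart 6 it was 0.13 and the adjusted p 0.471. The pseudogene Ak3l2-ps shares 10.2% of the 50-base windows of Ak4.

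Within hearts, the log2 ratio of Ak4 to Ak1 averaged -3.64 ± 0.81 in MI_vehicle and -4.91 ± 0.12 in sham_vehicle, a difference of 1.27 (exact p = 0.013, adjusted p = 0.0364). MI_vehicle heart 4, at -5.02, was again among the sham_vehicle hearts, which ran from -5.13 to -4.78.

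Ampd3, the erythrocyte-type AMP deaminase (chr7:110767790-110812409), rose in MI_vehicle. It had 36.1, 41.2, 36.1, 26.9, 31.6 and 40.6 FPKM in MI_vehicle hearts, against 21.1, 21.3, 18.8, 20.2, 25.0 and 24.6 FPKM in sham_vehicle hearts, and the groups did not overlap. The log2 difference was 0.67 (SE 0.11, limma adjusted p = 0.000362). The summed level of the 6 erythroid markers was 177 to 1379 FPKM in MI_vehicle and 357 to 2099 FPKM in sham_vehicle, with 0 of 5 tested called, while all 7 monocyte and macrophage markers were called higher, with a sum of 439 to 936 FPKM in MI_vehicle and 250 to 412 FPKM in sham_vehicle. The 4 neutrophil markers tested were called higher too, with a sum over all 6 listed of 49.5 to 366 FPKM in MI_vehicle and 8.31 to 33.3 FPKM in sham_vehicle. The part of these cells in the Ampd3 level was not tested. Ampd1, the skeletal muscle form, reached at most 0.07 FPKM in any heart and gives no usable reference for a ratio: the log2 ratio of Ampd3 to Ampd1 differed by 0.64 (exact p = 0.00216, adjusted p = 0.013), but by 0.48 with adjusted p = 0.149 at a pseudocount of 0.1.

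The genes of creatine synthesis were low and did not pass the test. Gatm, which makes guanidinoacetate from arginine and glycine (chr2:122594473-122611277), ran from 2.33 to 6.96 FPKM with a median of 4.38 in MI_vehicle, against 2.43 to 3.83 FPKM with a median of 3.44 in sham_vehicle. Hearts 1, 2, 5 and 6 of MI_vehicle were above the sham_vehicle range and heart 3 was below it. The log2 difference was 0.34 (95% confidence interval -0.03 to 0.71, limma adjusted p = 0.106), and 0.47 with adjusted p = 0.0138 without MI_vehicle heart 3, while it was 0.22 with adjusted p = 0.231 without MI_vehicle heart 5. Gamt, which methylates guanidinoacetate to creatine (chr10:80258151-80261025), ran from 4.23 to 8.01 FPKM in MI_vehicle, against 5.37 to 8.68 FPKM in sham_vehicle, with a log2 difference of -0.16 (95% confidence interval -0.45 to 0.12, limma adjusted p = 0.307).

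The cardiomyocyte structural markers moved with the muscle forms. Their summed level was 39627 to 55027 FPKM in MI_vehicle and 54456 to 60970 FPKM in sham_vehicle, and 6 of 10 were called lower and 1 higher, with a median log2 difference of -0.51. The highest MI_vehicle sum was that of heart 4. The 6 genes listed for skeletal muscle were Acta1, Myh1, Myh2, Myh4, Tnnt3 and Tnni2, of which 3 reached 1 FPKM in at least 1 heart of each group. They summed to 227 to 1538 FPKM in MI_DCA, 266 to 1812 FPKM in MI_vehicle and 100 to 389 FPKM in sham_vehicle. All 3 tested in MI_vehicle against sham_vehicle were called higher, with a median log2 difference of 1.31. Ampd1, the skeletal muscle AMP deaminase, reached at most 0.07 FPKM in any heart. The part of skeletal muscle in the levels of the muscle forms was not tested. Every gene was also set against the mean of the 10 cardiomyocyte structural markers in its own library, which moved the median of all genes to 0.57. Ckm was then lower by a log2 difference of -0.47 (limma adjusted p = 0.00992) and Ak1 by -0.60 (adjusted p = 0.00217). On the same scale Ckmt2 was at -0.20 (adjusted p = 0.107) and Ak3 at -0.03 (adjusted p = 0.826), neither called. Ckb at 0.87, Ampd3 at 1.12, Ak4 at 0.67, Gatm at 0.79 and Gamt at 0.29 were called higher by limma. Of all 11969 genes tested, 9001 were called in either direction on that scale. Relative to that shift of 0.57, Ckb, Ampd3, Ak4 and Gatm were above the median of all genes and Gamt below it. The part of cardiomyocyte content in the falls of these genes was not tested further.

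**Figure D4:**
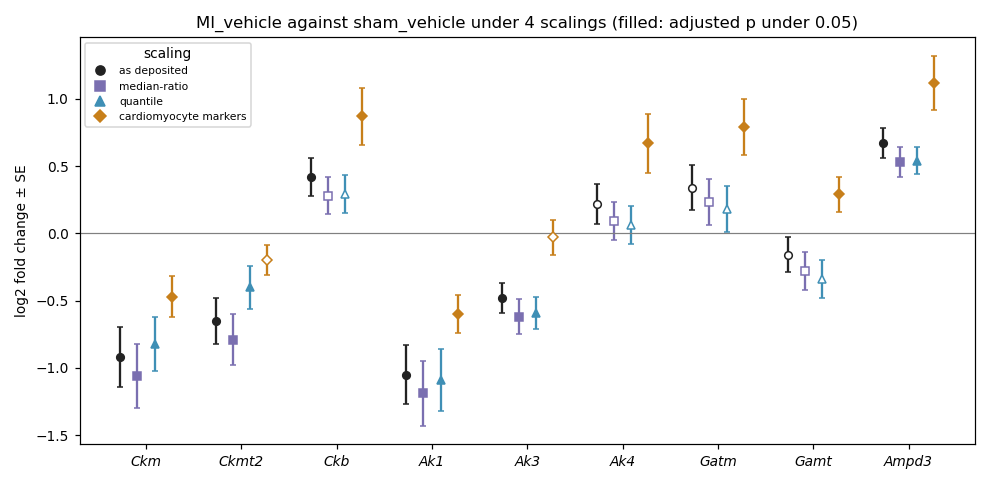
Log2 difference of each of the 9 genes in MI_vehicle against sham_vehicle under 4 scalings of the libraries, with bars of ± SE; filled points were called by limma. Ckm and Ak1 are below 0 under every scaling shown, while Ak3 moves to -0.03 and Gamt to 0.29 when set against the cardiomyocyte markers.

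In MI with DCA, 2 of the 9 genes fell relative to sham_vehicle, Ckm and Ak3, and none rose by the test. Of all 11842 genes tested, 15.5% were called higher and 8.33% lower, 23.8% in all, or 2817 genes, with 1055 to 4085 genes called when 1 heart was left out, fewest without sham_vehicle heart 5 and most without MI_DCA heart 3. The median log2 difference was -0.24 over the 9 genes and 0.05 over all genes tested. This comparison and the preceding one share the sham_vehicle hearts. The cardiomyocyte structural markers summed to 39202 to 60920 FPKM in MI_DCA and 54456 to 60970 FPKM in sham_vehicle, with 2 of 10 called lower. The lowest sums in MI_DCA were in hearts 2 and 6, which had the lowest Ckm levels. Heart 4, with a sum of 59136 FPKM inside the sham_vehicle range, also had Ckm below every sham_vehicle heart, at 906 FPKM, and the lowest Ak3. The part of cardiomyocyte content in the falls was not tested.

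Ckm had 1270, 692, 1316, 906, 1294 and 708 FPKM in MI_DCA hearts 1 to 6, against 1910, 1299, 1403, 1466, 1735 and 1416 FPKM in sham_vehicle hearts. All MI_DCA hearts but heart 3 were below the sham_vehicle range, with hearts 2, 4 and 6 lowest. The log2 difference was -0.62 (SE 0.19, limma adjusted p = 0.0354). The call was lost on leaving out MI_DCA heart 2, 4 or 6 or any 1 sham_vehicle heart, with differences of -0.66 to -0.51 and adjusted p = 0.0534 to 0.0766 in those fits. It was also lost with no filter on low values (limma adjusted p = 0.0632), in a fit on all 3 groups (adjusted p = 0.0582) and with library weights (log2 difference -0.27, adjusted p = 0.135).

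Ak3 had 59.5, 63.4, 61.5, 42.0, 61.2 and 58.4 FPKM in MI_DCA hearts, all below the sham_vehicle range of 67.2 to 78.0 FPKM. Hearts other than heart 4 lay between 58.4 and 63.4 FPKM. The log2 difference was -0.33 (SE 0.10, limma adjusted p = 0.032), and the call was lost without MI_DCA heart 6 or sham_vehicle heart 2, 3, 5 or 6, with adjusted p = 0.0567 to 0.0666. Without MI_DCA heart 4 the difference was -0.25 (limma adjusted p = 0.0429), and against the cardiomyocyte markers it was -0.11 (adjusted p = 0.613).

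Ckmt2 had 1589, 891, 1564, 1379, 1558 and 942 FPKM in MI_DCA hearts, with hearts 2, 4 and 6 below the sham_vehicle range of 1425 to 1819 FPKM. Its log2 difference of -0.32 (95% confidence interval -0.68 to 0.03, limma adjusted p = 0.147) did not pass the test. Ak1 had 257, 92.5, 292, 166, 260 and 124 FPKM in MI_DCA hearts, and only heart 3 was within the sham_vehicle range. Its log2 difference of -0.64 (limma adjusted p = 0.0696) was called without MI_DCA heart 1, 3 or 5, at -0.74, -0.78 and -0.74 with adjusted p = 0.0424, 0.0256 and 0.0444. Ampd3 had 21.6, 45.1, 26.0, 30.1, 22.2 and 39.6 FPKM in MI_DCA hearts, with hearts 2, 3, 4 and 6 above the sham_vehicle range of 18.8 to 25.0 FPKM. Its log2 difference of 0.43 (limma adjusted p = 0.0734) was called without MI_DCA heart 1, at 0.52 with adjusted p = 0.0334, or heart 5, at 0.51 with adjusted p = 0.0406.

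None of the remaining 4 genes was called. Ckb ran from 24.6 to 38.6 FPKM in MI_DCA, with only heart 2 above the sham_vehicle range, and its log2 difference was 0.08 (95% confidence interval -0.14 to 0.29, limma adjusted p = 0.571). Ak4 ran from 5.42 to 11.3 FPKM (log2 difference -0.11, adjusted p = 0.548), Gatm from 1.78 to 3.10 FPKM (-0.24, adjusted p = 0.139) and Gamt from 4.22 to 9.56 FPKM (-0.12, adjusted p = 0.601).

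The log2 ratio of Ckmt2 to Ckm was 0.37 ± 0.13 in MI_DCA and 0.08 ± 0.15 in sham_vehicle, a difference of 0.29 (exact p = 0.00216, the smallest that the exact test can give; adjusted p = 0.013). The groups met at 0.25 without crossing, MI_DCA running from 0.25 to 0.61 and sham_vehicle from -0.13 to 0.25. The log2 ratio of Ckb to Ckm was -5.42, -4.13, -5.68, -4.79, -5.40 and -4.48 in MI_DCA hearts, against -5.98 to -5.39 in sham_vehicle, a difference of 0.69 (exact p = 0.0281, adjusted p = 0.0519). The adjusted p was 0.0408, 0.0195 and 0.0408 by the exact test without MI_DCA heart 1, 3 or 5, where the difference was 0.78, 0.83 and 0.78. The ratio of Ak4 to Ak1 differed by 0.53 (exact p = 0.128, adjusted p = 0.153), and by 0.66 with adjusted p = 0.0487 without MI_DCA heart 5.

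**Figure D5:**
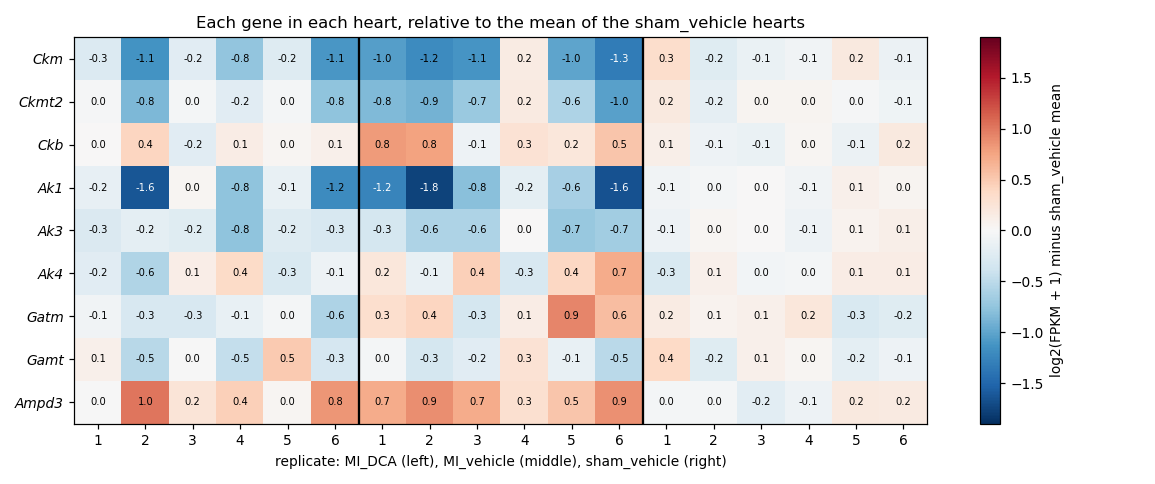
Level of each of the 9 genes in each heart, as log2(FPKM + 1) minus the mean over the sham_vehicle hearts, with the MI_DCA hearts left, the MI_vehicle hearts in the middle and the sham_vehicle hearts right; blue is lower and red is higher. MI_vehicle heart 4 and MI_DCA hearts 1, 3 and 5 are pale for Ckm, Ckmt2 and Ak1, and the highest Ampd3 level, 45.1 FPKM, is that of MI_DCA heart 2.

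Between the MI groups, none of the 9 genes was called, with 0 of 12004 genes called by limma (0%) and a smallest adjusted p of 0.301. At an unadjusted p below 0.05 there were 1299 genes, of which 2 were among the 9, Gatm and Ckb. Gatm was 2.58 ± 0.494 FPKM in MI_DCA and 4.49 ± 1.56 FPKM in MI_vehicle, a log2 difference of -0.58 (95% confidence interval -0.97 to -0.19, limma adjusted p = 0.407). Ckb was 30.7 ± 4.60 FPKM in MI_DCA and 39.7 ± 9.60 FPKM in MI_vehicle, a log2 difference of -0.34 (95% confidence interval -0.68 to -0.00, limma adjusted p = 0.46). The 6 fibroblast markers summed to 408 to 792 FPKM in MI_DCA, 654 to 1020 FPKM in MI_vehicle and 718 to 988 FPKM in sham_vehicle. Between the MI groups their median log2 difference was -0.46, with 0 of 6 called. It was -0.86 for neutrophil, -0.54 for monocyte and macrophage and -0.13 for smooth muscle and pericyte markers. Endothelial markers were at 0.13 and cardiomyocyte structural markers at 0.20, and 0 were called in each list. The part of any of these cells in the Gatm and Ckb levels was not tested.

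For the muscle forms the intervals between the MI groups were wide. Ckm differed by 0.30 (95% confidence interval -0.27 to 0.88), Ckmt2 by 0.33 (-0.16 to 0.81) and Ak1 by 0.41 (-0.32 to 1.13) on the log2 scale. Leaving out 1 heart gave 0.22 to 0.52 for Ckm and 0.25 to 0.49 for Ckmt2, both highest without MI_vehicle heart 4, and 0.26 to 0.60 for Ak1, lowest without MI_vehicle heart 2 and highest without MI_DCA heart 2, with none called by limma. The other differences were 0.15 (-0.15 to 0.44) for Ak3, -0.34 (-0.75 to 0.07) for Ak4, 0.04 (-0.35 to 0.43) for Gamt and -0.24 (-0.63 to 0.16) for Ampd3. Every one of these intervals includes 0. The upper bounds for Ckmt2 and Ak1 exceed in size their falls of -0.65 and -1.05 in MI_vehicle against sham_vehicle. The upper bound for Ckm, 0.88, is slightly smaller in size than its fall of -0.92. With library weights, which give less weight to hearts lying away from their group, 5 of the 9 genes were called, with Ckm at 0.71 (limma adjusted p = 0.00756), Ckmt2 and Ak1 higher and Ak4 and Ampd3 lower, beside 5370 genes in all. The ratio of Ckb to Ckm differed by -0.64 (exact p = 0.123, adjusted p = 0.153) and that of Ak4 to Ak1 by -0.74 (exact p = 0.0952, adjusted p = 0.143). Without MI_vehicle heart 4 these were -0.88 and -1.02, both with adjusted p = 0.0404 by the exact test. For each ratio this was the only 1 of 12 fits leaving out 1 heart that passed. The adjusted p of the exact test reached 0.265 among those fits.

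Other genes of energy transfer were called about as often as genes in general. Of 42 listed genes of nucleotide and phosphate transfer, 36 were tested in each comparison, and Ckmt1, Ak5, Ak7, Ak8, Ak9 and Ampd1 were too low. In MI_vehicle against sham_vehicle 16 were called higher (44.4%, against 38.3% of all genes), 7 lower (19.4%, against 20.1%) and 13 not, with a median log2 difference of 0.14 against 0.12 over all genes. The largest rises were in Nme1, a nucleoside diphosphate kinase (53.6 ± 19.6 FPKM in MI_vehicle and 15.3 ± 1.53 FPKM in sham_vehicle, log2 difference 1.65, limma adjusted p = 0.000164), Aprt, which salvages adenine (1.45, adjusted p = 0.000159), and Nt5c, a cytosolic 5′ nucleotidase (1.25, adjusted p = 0.000185). The largest falls were in Slc25a4, the ADP/ATP carrier of heart and muscle (2997 ± 896 FPKM in MI_vehicle and 4984 ± 226 FPKM in sham_vehicle, log2 difference -0.78, adjusted p = 0.00203), Vdac1, a channel of the outer mitochondrial membrane (-0.65, adjusted p = 0.002), and Nt5c1a, a nucleotidase that acts on AMP (-0.62, adjusted p = 0.0127). The balance moved with the scaling, an alternative for this list chosen after seeing the data: 13 were called higher and 13 lower under median-ratio scaling, 14 and 12 under quantile normalization, and 23 and 1 when set against the cardiomyocyte markers. Of all 11969 genes, 6809, 6882 and 9001 were called in either direction under the same 3 scalings. Nme1, Aprt, Nt5c and Slc25a4 kept their call and direction under all 3, whereas Vdac1 at -0.20 (limma adjusted p = 0.0828) and Nt5c1a at -0.18 (adjusted p = 0.321) lost theirs against the cardiomyocyte markers.

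Ampd2, the liver-type AMP deaminase, rose in both MI groups, with 6.64 ± 1.59 FPKM in MI_DCA, 8.58 ± 2.17 FPKM in MI_vehicle and 3.78 ± 0.263 FPKM in sham_vehicle. Its log2 difference from sham_vehicle was 0.65 in MI_DCA (limma adjusted p = 0.00807) and 0.97 in MI_vehicle (adjusted p = 0.000187). Slc6a8, the creatine transporter, had 66.6 ± 14.4 FPKM in MI_DCA, 63.5 ± 12.7 FPKM in MI_vehicle and 64.9 ± 9.47 FPKM in sham_vehicle, with log2 differences from sham_vehicle of 0.02 in MI_DCA and -0.04 in MI_vehicle, neither called. Ckmt1, the ubiquitous mitochondrial creatine kinase, reached at most 0.53 FPKM in any heart.

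In MI_DCA against sham_vehicle, 7 of the 36 were called higher (19.4%, against 15.5% of all genes) and 2 lower (5.56%, against 8.33%), with a median of 0.08 against 0.05 over all genes. The rises were again largest in Nme1 (1.30, limma adjusted p = 0.0151), Aprt (1.06, adjusted p = 0.0135) and Nt5c (0.85, adjusted p = 0.00892), and the falls were in Prkab1, a regulatory subunit of the AMP-activated kinase (-0.45, adjusted p = 0.0189), and Vdac1 (-0.42, adjusted p = 0.0312), both lost against the cardiomyocyte markers at -0.22 (adjusted p = 0.191) and -0.20 (adjusted p = 0.153). Between the MI groups 0 of 36 were called.

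The genes whose levels lay nearest to those of a member were found by the root mean square difference of log2 levels. Each level was taken from the gene's own sham_vehicle mean, over the 18 libraries and among 6049 genes. Such a difference is also small where both genes changed little. For Ckm these were Tmem143 (0.13), Mcee, a mitochondrial epimerase (0.14), and Nudt8 (0.15). For Ckmt2 they were Uqcrfs1 (0.08) and Cyc1 (0.09), both of respiratory complex III, with Akr1b10, an aldo-keto reductase (0.08). Those nearest to Ckb were Mxra7 (0.15), Tln2, a talin (0.16), and Psmd8, a proteasome subunit (0.16). Those nearest to Ak4 were Pfkl, the liver-type phosphofructokinase (0.18), Dlc1 (0.23) and Bmpr1a, a receptor for bone morphogenetic proteins (0.24). Dlc1 averaged 21.8 FPKM in MI_DCA, 23.4 in MI_vehicle and 22 in sham_vehicle, and Bmpr1a 17.8, 19 and 17.9 FPKM, so these changed little.

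Transcript values showed which forms carried these levels. Ckm, Ckb and Gatm have 1 transcript each in the files, and 1 transcript of Ckmt2 held at least 99.6% of its level in every heart. Of the 6 Ak1 transcripts, the main one held on average 59.2% (40.3% to 69.7%) in MI_DCA, 66.6% (59.7% to 73.8%) in MI_vehicle and 56.6% (46.6% to 72.6%) in sham_vehicle. The next one held 38.7%, 31.1% and 41.0% in the same groups. The ranges of the main one overlapped between the groups, and the shares were not tested. Sharing of 50-base windows among the 9 genes themselves was not counted. Outside the 9 genes, 9.98% of the windows of Ckb occur in its pseudogenes or other genes. For Ckm, 10.8% occur in the overlapping gene A930016O22Rik. The use of strand in counting is not given in the sources used here, so reads from such overlaps cannot be told apart.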

How the data were processed

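RNA of the heart apex was sequenced in 18 libraries, 6 in each of 3 groups taken from the labels. Per the labels' protocols, Trizol RNA was made into RNA Access capture libraries and read as single reads of 50 bases. The deposited values are FPKM for genes and transcripts, made by the authors; the header does not name the unit, which was inferred from the values. GRCm38.p6, DESeq2 1.4.5, RSEM 1.2.12 and Bowtie2 2.2.5 are listed, with no roles, per the submitters' processing notes. Gene identifiers matched the RefSeq table for 19051 genes (99.2%), and 26 symbols turned into dates were restored.

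Depth was estimated from low transcript values that are whole multiples of 1 read. It limits the genes with the lowest values, Gatm and Gamt. FPKM were tested as log2(FPKM + 1) with limma 3.58.1 in R 4.3.3, with a mean-variance trend, on the 12 libraries of each comparison, for genes that reached 1 FPKM in 6 or more of them. Benjamini-Hochberg adjustment ran over all genes tested. Within-heart ratios were compared by exact 2-sided permutation tests and adjusted over 12 tests. The fits were tested on simulated data. Alternatives were the pseudocount, no filter, 3 other scalings, a fit on all groups, a replicate block, library weights and leaving out each heart. All 9 genes were named. Of the other energy-transfer genes, those named were the 3 called with the largest rise and fall in each comparison and Slc6a8, Ckmt1, Ampd1 and Ampd2; another gene that the rule names is not reported here. The 9 genes, the lists and the tests were chosen with earlier results of these data known. Figures were drawn with matplotlib 3.10.9, and exact tests used scipy 1.17.1.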

Additional observations from a re-analysis of the deposited data

Results flagged for a closer look

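In each group of 6 hearts the gap between the highest or lowest heart and its neighbour was divided by the range of the group and set against Dixon's critical value for 6 values. Of 39 groups examined, 3 exceeded it, where chance gives about 1 in 20. In MI_vehicle the highest heart, heart 4, stood apart for Ckm (0.855) and Ckmt2 (0.716). In MI_DCA the lowest heart, heart 4, stood apart for Ak3 (0.768), at 42.0 FPKM against 58.4 FPKM in the next. Beside the differences from sham_vehicle, values without heart 4 are given for Ckm and Ckmt2 in MI_vehicle and for Ak3 in MI_DCA. The cause was not tested.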

How the results depend on the processing

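In MI_vehicle against sham_vehicle, 2 of the 9 genes were called higher and 4 lower. Under median-ratio scaling 1 was called higher, under quantile normalization 1, and under scaling by the cardiomyocyte markers 5 higher and 2 lower. Under that last scaling Gamt turned to 0.29. Of all 11969 genes, 6991 were called in either direction as deposited. Under the 3 scalings, in the same order, 6809, 6882 and 9001 were called. In MI_DCA against sham_vehicle the 2 genes called lower became 1 with no filter on low values, 1 under scaling by the cardiomyocyte markers, 1 in the fit on all 3 groups and 1 with library weights. In the same order, 2225 of 18258 genes and 1306, 2727 and 1961 of 11842 genes were called in either direction. In MI_DCA against MI_vehicle, library weights gave 3 called higher and 2 lower, beside 5370 of 12004 genes in all, and the other settings 0. The ratio of Ampd3 to Ampd1 in MI_vehicle against sham_vehicle was 0.48 at a pseudocount of 0.1. The causes were not tested. Leaving out 1 heart, the MI_vehicle counts against sham_vehicle were 2 to 3 higher and 4 lower, and the MI_DCA counts against sham_vehicle 0 to 1 higher and 0 to 3 lower. Over the same fits the ratio differences were 1.21 to 1.58 (Ckb to Ckm), 0.23 to 0.32 (Ckmt2 to Ckm), 1.05 to 1.54 (Ak4 to Ak1) and 0.59 to 0.71 (Ampd3 to Ampd1) in MI_vehicle against sham_vehicle. They were 0.52 to 0.83, 0.25 to 0.33, 0.40 to 0.66 and 0.33 to 0.53 in MI_DCA against sham_vehicle, and -0.88 to -0.50, -0.03 to 0.05, -1.02 to -0.52 and -0.31 to -0.11 in MI_DCA against MI_vehicle. Hearts share only a number: the correlation of same-numbered hearts was over 0.1 in 1 of 6 pairs for MI_vehicle with sham_vehicle, 1 of 6 for MI_DCA with sham_vehicle and 4 of 6 for MI_DCA with MI_vehicle, and each heart correlated best with its own number in 1 of 6 in each. With the number as a replicate block 2 genes were called higher and 4 lower in MI_vehicle against sham_vehicle, 0 and 2 in MI_DCA against sham_vehicle and 0 and 0 between the MI groups, and 27 of 27 results of single genes kept their call and direction. The low FPKM of Gatm and Gamt, and 6 hearts per group with a wide spread after MI, limit what differences could be detected.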
